A study of Mus musculus with 5 samples.

Results

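The genes described here are the glutathione and antioxidant defence genes of the mouse: the glutathione transferases (Gsta, Gstk, Gstm, Gsto, Gstp, Gstt and Gstz) and microsomal glutathione transferases (Mgst), the glutathione peroxidases (Gpx), peroxiredoxins (Prdx), superoxide dismutases (Sod) and thioredoxin reductases (Txnrd), with Gclc, Gclm, Gsr, Gss, Nqo1, Nqo2, Hmox1, Cat, Srxn1, Txn1 and Nfe2l2. They were chosen by gene symbol alone in the array's annotation, with no measured value in the rule. Earlier results of these data were known when the set was chosen, so its contrasts with all genes are not independent of them. The rule found 53 probes of 50 genes, among 21876 named probes of 19084 genes. No probe was named for Sod1, Prdx5 or Prdx6, so these families are covered only in part. Where a gene had several probes, the one with the highest mean intensity stands for it.

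Glutathione, a small thiol peptide, is made by glutamate-cysteine ligase and glutathione synthetase, spent by peroxidases that reduce peroxides and by transferases that attach it to reactive compounds, and returned to its reduced form by glutathione reductase. Peroxiredoxins, thioredoxin and the thioredoxin reductases form a parallel route for reducing peroxides. The transcription factor Nrf2, encoded by Nfe2l2, drives many of these genes through antioxidant response elements in their promoters. In Leydig cells, which make androgens in the testis interstitium, the cytochrome P450 steps of steroid synthesis are known to release oxidants, and these enzymes are part of the cells' defence against them.

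Transcripts were measured on 5 single-colour mouse arrays. The MEF group was 1 array of mock-transduced fibroblasts from embryos of 13.5 days. The iLC group, short for induced Leydig-like cells, was 2 arrays of such fibroblasts exposed for 12 h to lentiviruses carrying Dmrt1, Gata4 and Nr5a1, then kept in medium containing 50 ng/ml of IGF and 10 ng/ml of PDGFAA. The Leydig group was 2 arrays of Leydig cells isolated from testes of mice aged 56 days. The labels carry the same protocol beside every sample, and they do not state the medium of the MEF, how long iLC were grown, or whether the 2 arrays of a group stand for different cultures or mice. The p-values below therefore measure the spread between these arrays, which may be technical. Each value is a probe intensity, linear and with no unit of its own, and differences are taken between arrays for the same probe. Different probes were set side by side to pick the brightest probe or member, and were added in the marker sums, which 1 bright probe can dominate. In a bulk sample, fewer cells of a type and less RNA per cell cannot be told apart.

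The array medians lay between 1111 and 1229.99. The Leydig marker list, of which 9 of 12 genes were measured, summed to 15192 in MEF, 109828 and 189751 in the iLC pair, and 404975 and 678578 in the Leydig pair. Within it, the Nr5a1 probe read 1265 in MEF, 1509 and 1158 in the iLC pair, and 68030 and 44721 in the Leydig pair, and no source used here says whether that probe covers the delivered sequence. The Gata4 probe, for another of the delivered factors, read 6773 in MEF, 4127 and 3150 in the iLC pair, and 71888 and 50891 in the Leydig pair, and that of Dmrt1, the third, read 333 to 549 on all 5 arrays. The Cyp11a1 probe, for the enzyme that starts steroid synthesis, read 451 to 907 on all 5 arrays, with neither Leydig array above the others. Genes of the Leydig list did not all follow its sums. Star read 695 in MEF, 56878 and 73892 in the iLC pair, and 1368 and 19703 in the Leydig pair. Cyp17a1 read 2344 in MEF, 1382 and 2351 in the iLC pair, and 40614 and 197728 in the Leydig pair. Ptgds read 408 in MEF, 12887 and 58864 in the iLC pair, and 2214 and 235608 in the Leydig pair. Hsd3b1 did follow the sums, with 830 in MEF, 27160 and 34513 in the iLC pair, and 218338 and 95740 in the Leydig pair. Leydig replicate 2 stood apart in germ cell transcripts: the 12 germ cell markers, all measured, summed to 753550 there, 39520 in Leydig replicate 1, 9747 in MEF, and 11685 and 10988 in iLC. None of the 12 was under the 20th percentile of Leydig replicate 2, and Odf1, a sperm tail protein, read 356634 there against 2692 on Leydig replicate 1. The 10 Sertoli cell markers, all measured, summed to 46775 in MEF, 65227 and 104834 in the iLC pair, and 354638 and 391144 in the Leydig pair, of which Clu alone read 332720 and 369002 in the Leydig pair. Clu and Cldn11 were the 2 called higher in Leydig cells than in MEF, while 4 of the 10, Sox9, Amh, Rhox5 and Tjp1, lay lower, and the median difference of the list was 0.30. The 11 fibroblast markers summed lowest in the Leydig pair, 496381 and 318734, and highest in MEF. Of the 11, 6 were called lower in Leydig cells than in MEF and 1, Pdgfra, higher. Pdgfra read 15980 in MEF, 28814 and 20535 in the iLC pair, and 180686 and 92654 in the Leydig pair. Col3a1 read 6470 in MEF, and 30186 and 3266 in the Leydig pair. Macrophage markers, 11 of 12 measured, summed to 146901 on the MEF array and to 32074 to 69737 on the other 4. Of the erythroid list 3 of 10 genes were measured, and the globin Hbb-b1 read 205 in MEF, 178 and 177 in the iLC pair, and 20935 and 18462 in the Leydig pair. Alas2 did not follow it, with 581 in MEF, 11957 and 35000 in the iLC pair, and 7007 and 8473 in the Leydig pair. Slc4a1 read 156 to 247 on all 5 arrays. The 8 endothelial markers summed to 11163 in MEF, 10140.2 and 10026 in the iLC pair, and 21291 and 17085 in the Leydig pair, where Cdh5 read 10224 and 6400 against 771 to 1216 elsewhere, and 1 of the 8 was called higher and 1 lower in Leydig cells than in MEF. The Clu, Cldn11, Hbb-b1 and Cdh5 signals stood in both Leydig arrays. The part of these other cells in the results below was not tested. Each member call that uses the Leydig arrays is given with and without Leydig replicate 2, as is each pathway list call printed with its difference. Marker calls, and list calls counted without a printed difference, are given with all arrays only.

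Differences are on the log2(intensity + 16) scale, where 1 unit is a 2-fold change, with the standard error (SE) of limma's fit. A gene was called where limma's p-value, adjusted over all 19084 genes, was under 0.05. Of the 50 genes, 13 were called in at least 1 of the 3 comparisons. That share was not computed for all genes, so only the counts by comparison can be set beside all genes. Between iLC and MEF, 1 member was called higher (Gsta3) and 0 lower, where 0.283% of all genes were called higher and 0.288% lower. At an unadjusted p under 0.05 the same fit had 21 members higher and 0 lower, beside 5.57% and 10.2% of all genes. In either direction at that level, 21, 19 and 21 members passed between iLC and MEF, iLC and Leydig cells, and Leydig cells and MEF, beside 15.8%, 26.8% and 19.9% of all genes. Between iLC and Leydig cells, 4 members were called higher in iLC (Gsto1, Mgst2, Nqo1 and Prdx1) and 6 lower (Gsta3, Gstm2, Gstm3, Gstm5, Gstt1 and Txnrd2), that is 8% and 12% of the members beside 5.74% and 5.69% of all genes. Between Leydig cells and MEF, 6 were called higher in Leydig cells (Gsta3, Gsta4, Gstm2, Gstt1, Gstt2 and Mgst1) and 1 lower (Gsto1), 12% and 2% of the members beside 3.39% and 3.99% of all genes. The comparisons share arrays, so they are not independent of one another. With dim values raised to a floor, the 20th percentile of intensity (285), 15 of these 18 calls were lost, and those of Gstm2 (both) and Txnrd2 were kept.

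The median member differed by 0.72 between iLC and MEF, where the median of all genes was -0.11. The corresponding medians were 0.63 and -0.10 between Leydig cells and MEF, and 0.10 and -0.03 between iLC and Leydig cells. After quantile normalization the iLC to MEF medians were 0.69 for the members and 0.05 for all genes. With a filter on dim genes they were 0.74 and 0.02, and with aligned low ends 0.74 and 0.12. The MEF array had the highest low end. Its 1st percentile was 83.8, against -10.1 and 23.7 in the iLC pair and 36.9 and 21.0 in the Leydig pair. The part of this low end in the shares of all genes lying below MEF, by position or at an unadjusted p, was not tested. The plot of all members by array shows where each gene's 5 values lie.

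**Figure D1:**
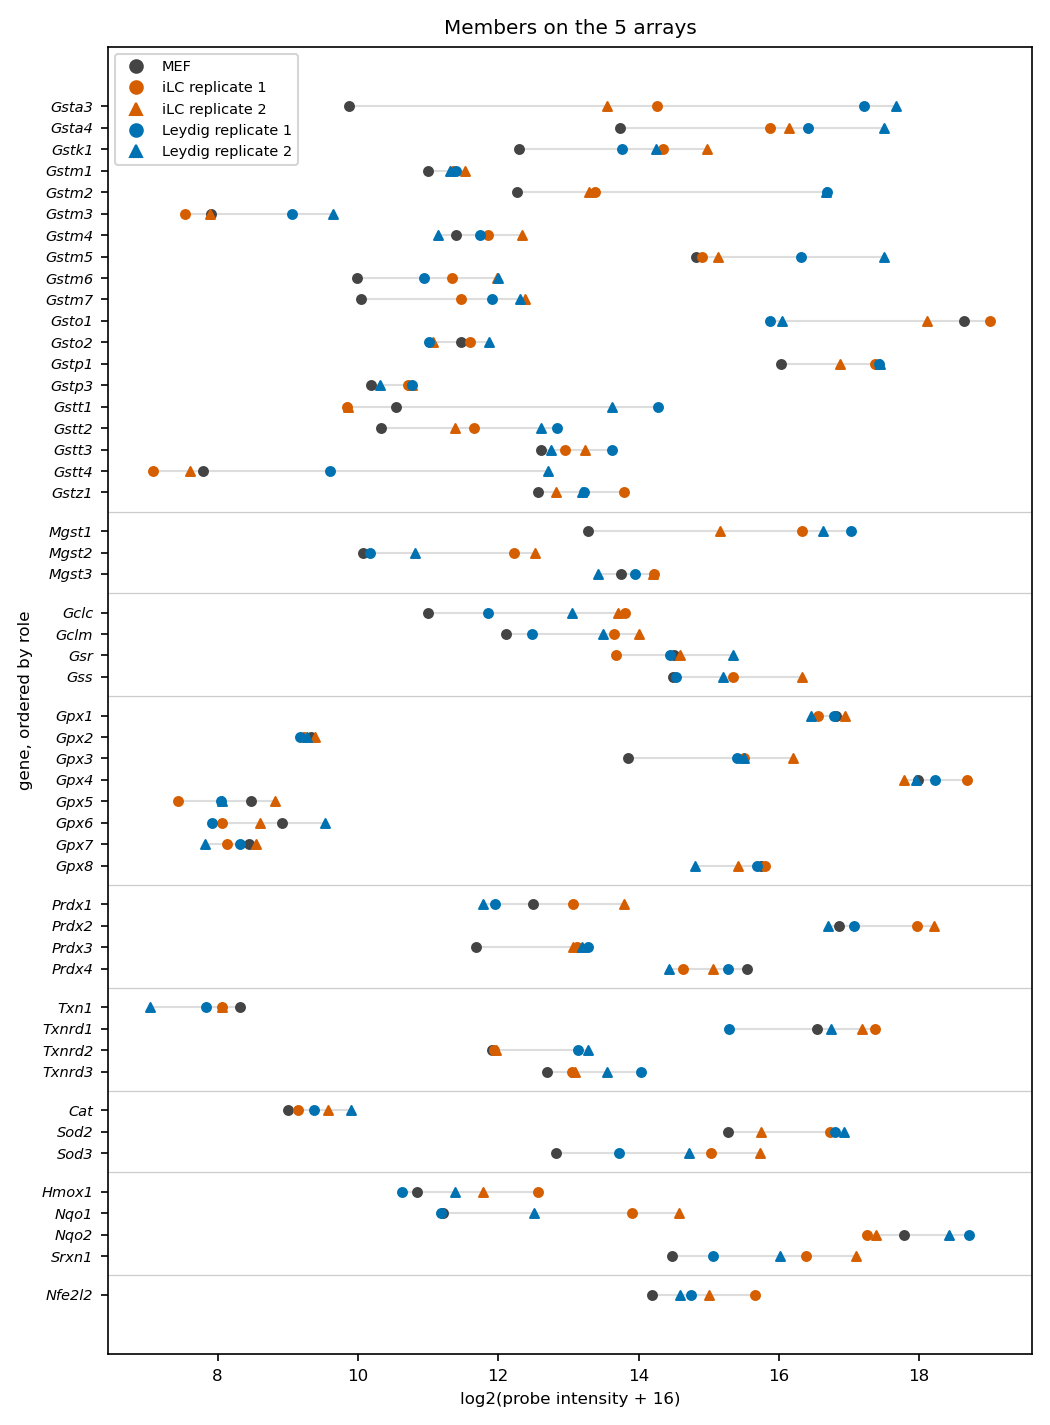
Each row is 1 of the 50 genes, ordered by role, and the horizontal axis is log2(probe intensity + 16). Each point is 1 array (grey, MEF; orange, iLC; blue, Leydig; circles, replicate 1; triangles, replicate 2), and a line spans the row's range. The rows of Gsta3, Gstm2 and Gstt1 have both Leydig points far to the right of the others, and that of Gsto1 has them to the left.

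By position of the arrays, with no test, 34 members had both iLC arrays above the MEF array and 7 had both below it, where 34% of all genes lay above and 44.4% below. Both Leydig arrays were above the MEF array for 31 members and below it for 9, beside 33% and 44.1% of all genes. The shares of all genes include dim genes, for which the low end of MEF was the highest. Both iLC arrays were above both Leydig arrays for 18 members and below them for 15, beside 28.9% and 29% of all genes. In 16 members both iLC arrays were above the MEF array and both Leydig arrays (17.6% of all genes): Gclc, Gclm, Gss, Gpx3, Gstk1, Gstm4, Mgst2, Mgst3, Prdx1, Prdx2, Txnrd1, Sod3, Hmox1, Nqo1, Srxn1 and Nfe2l2. In 11 the iLC arrays lay between the MEF array and the higher Leydig arrays (5.98% of all genes): Gsta3, Gsta4, Gstm2, Gstm5, Gstp1, Gstt2, Mgst1, Prdx3, Txnrd2, Txnrd3 and Sod2. The reverse order, MEF highest and iLC between, held for 1 member, Txn1 (6.59% of all genes). Both iLC arrays were below all others for 4 members, Gstm3, Gstt1, Gstt4 and Nqo2 (18.5% of all genes). The remaining 18 members were in none of these 4 orders, as were 51.3% of all genes. Both Leydig arrays were above the other 3 for 15 members (19% of all genes) and below them for 3, Gsto1, Prdx1 and Txn1 (19.8%). Without Leydig replicate 2, the members with both iLC arrays on top numbered 17 and those with the Leydig array on top 16, where 19.95% and 27.1% of all genes did so.

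Promoter sequences were searched because several members are known targets of Nrf2. RefSeq's table (build GRCm38.p6), with 250 bases before to 50 after each start, held 44 of the 50 members in 59 windows. The core of the antioxidant response element, searched as TGACNNNGC on either strand (its reverse is GCNNNGTCA), was found in 9 of the 44 members (20.5%), and 14.0% of all 27025 genes in the table held it. By window the shares were 15.3% of 59 and 12.4% of 32851. The AP-1 site TGANTCA, which can overlap the element, was found in 6 of 44 members (13.6%) and in 8.97% of all genes. The 9 members were Gclm, Gsta3, Gstm5, Gstm7, Mgst1, Nfe2l2, Prdx1, Srxn1 and Txnrd1. Among members with iLC on top, Nqo1, Gss, Gpx3, Gstk1, Gstm4, Mgst2, Mgst3 and Prdx2 held no match, and Gclc, Hmox1 and Sod3 had no window. The Prdx1 match overlaps an AP-1 site. A match is a description of these letters and not evidence of binding. The windows of 4 members are shown, 1 from the graded pattern (Gsta3) and 3 with iLC on top (Gclm, Prdx1 and Srxn1), with the match to the element in capitals. All 4 lie on the plus strand, at chr1:21240335-21240634 for Gsta3, chr3:122245307-122245606 for Gclm, chr4:116685349-116685648 for Prdx1 and chr2:152105274-152105573 for Srxn1. The match begins 121 bases before the start of Gsta3, 134 before that of Gclm and 133 before that of Prdx1, and 29 bases after that of Srxn1.
Gsta3: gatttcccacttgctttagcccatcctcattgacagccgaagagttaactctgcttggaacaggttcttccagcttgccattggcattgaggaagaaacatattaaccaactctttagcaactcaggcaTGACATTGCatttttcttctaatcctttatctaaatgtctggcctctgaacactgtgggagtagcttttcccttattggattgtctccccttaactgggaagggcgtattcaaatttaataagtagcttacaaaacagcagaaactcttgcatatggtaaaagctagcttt
Gclm: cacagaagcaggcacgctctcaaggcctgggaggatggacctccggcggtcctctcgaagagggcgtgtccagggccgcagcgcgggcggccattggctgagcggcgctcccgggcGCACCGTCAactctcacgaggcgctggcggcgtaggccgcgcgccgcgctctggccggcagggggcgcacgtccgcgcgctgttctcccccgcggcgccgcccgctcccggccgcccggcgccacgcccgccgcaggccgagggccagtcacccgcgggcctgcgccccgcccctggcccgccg
Prdx1: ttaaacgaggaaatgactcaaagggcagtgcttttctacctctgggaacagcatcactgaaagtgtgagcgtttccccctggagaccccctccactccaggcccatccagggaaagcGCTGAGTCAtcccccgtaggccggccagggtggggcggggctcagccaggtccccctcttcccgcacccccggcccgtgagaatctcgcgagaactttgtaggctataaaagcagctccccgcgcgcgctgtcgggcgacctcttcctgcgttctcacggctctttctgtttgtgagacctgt
Srxn1: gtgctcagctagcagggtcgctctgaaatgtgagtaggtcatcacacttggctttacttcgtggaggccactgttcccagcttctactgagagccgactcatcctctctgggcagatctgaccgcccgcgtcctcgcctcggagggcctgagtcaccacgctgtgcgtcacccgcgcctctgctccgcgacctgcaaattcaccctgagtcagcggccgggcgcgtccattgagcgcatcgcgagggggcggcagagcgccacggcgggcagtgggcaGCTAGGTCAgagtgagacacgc

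The glutathione transferases, 19 of the 50 genes, held the members with the widest differences. Probes of close paralogs, above all in the Gstm and Gstp families, may take up each other's transcripts, so the values of those genes are uncertain as to which member they measure. Gsta3, an alpha-class transferase whose mouse enzyme is known for detoxifying aflatoxin, read 926 in MEF, 19614 and 12023 in the iLC pair, and 151867 and 209494 in the Leydig pair. The 3 groups stood apart in that order. The gene rose by 4.03 ± 0.47 from MEF to iLC (adjusted p = 0.0352) and differed by -3.54 ± 0.38 between iLC and Leydig cells (adjusted p = 0.00356). It was 7.57 ± 0.47 higher in Leydig cells than in MEF (adjusted p = 0.00172). With Leydig replicate 2 left out the last difference was 7.33 (adjusted p = 0.0496) and that between iLC and Leydig cells -3.30, no longer called (adjusted p = 0.0506). The rise from MEF to iLC was not called when any 1 of the 4 iLC and Leydig arrays was left out (3.68 to 4.38). Each such fit loses 1 of the 2 residual degrees of freedom, so it cannot show a weakness of Gsta3 in particular. Without either Leydig array the difference itself stayed at 4.03. The rise was also not called with an added constant of 4 or aligned low ends. With the floor, none of the 3 Gsta3 calls was made.

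Gstm2, a mu-class transferase, read 4911 in MEF, 10642 and 9987 in the iLC pair, and 105955 and 104658 in the Leydig pair. The arrays of each pair nearly coincided, and both Leydig arrays were far above the other 3. The difference was -3.35 ± 0.30 between iLC and Leydig cells (adjusted p = 0.00202) and 4.42 ± 0.37 between Leydig cells and MEF (adjusted p = 0.00362). Both calls were also made when any 1 of those 4 arrays was left out, with -3.36 and 4.43 without Leydig replicate 2 (adjusted p = 0.0350 and 0.0496). From MEF to iLC, Gstm2 differed by 1.07 ± 0.37, which was not called (adjusted p = 0.248).

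Gstt1, a theta-class transferase that acts on small halogenated compounds, read 1478 in MEF, 906 and 912 in the iLC pair, and 19915 and 12531 in the Leydig pair. It was high in the Leydig pair alone, and the iLC pair was the lowest of the 5 arrays. The difference from Leydig cells was -4.10 ± 0.35 in iLC (adjusted p = 0.00194), and that between Leydig cells and MEF was 3.40 ± 0.43 (adjusted p = 0.00971). Without Leydig replicate 2 they were -4.43 (adjusted p = 0.0306) and 3.74 (adjusted p = 0.0530), the second not called. Neither Gstt1 call was made with the floor, although all 5 values lie above it. Its neighbour in the family, Gstt2, read 1265 in MEF, 3206 and 2645 in the iLC pair, and 7283 and 6266 in the Leydig pair. Here the iLC arrays lay between the other groups. Gstt2 was 2.40 ± 0.38 higher in Leydig cells than in MEF (adjusted p = 0.0184), a call lost without either Leydig array (2.29 to 2.51, adjusted p up to 0.0847), and the iLC differences of 1.19 from MEF and -1.21 from Leydig cells were not called (adjusted p = 0.225 and 0.0612), the latter passing with an added constant of 64, a filter on dim genes or an intensity trend.

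Gsto1, an omega-class enzyme with thioltransferase and dehydroascorbate reductase activity, went the other way. It read 408720 in MEF, 527769 and 283040 in the iLC pair, and 59758 and 67275 in the Leydig pair. The MEF value lay between the iLC values, and both Leydig arrays were far below all 3. Gsto1 was 2.61 ± 0.40 higher in iLC than in Leydig cells (adjusted p = 0.0108) and differed by -2.69 ± 0.48 between Leydig cells and MEF (adjusted p = 0.0260). When Leydig replicate 2 was omitted the values were 2.69 and -2.77, neither called (adjusted p = 0.0887 and 0.125). The first was also lost without iLC replicate 1 or Leydig replicate 1 (2.16 to 3.06 over the 4 arrays), and the second without Leydig replicate 1 or with aligned low ends (-2.60 at its smallest).

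Gsta4, which conjugates the lipid peroxidation product 4-hydroxynonenal, read 13695 in MEF, 59941 and 72546 in the iLC pair, and 87419 and 184984 in the Leydig pair. Its order was that of Gsta3, and Leydig replicate 1 lay nearer to the iLC pair than to Leydig replicate 2. The difference was 3.21 ± 0.53 between Leydig cells and MEF (adjusted p = 0.0206), 2.67 and not called without Leydig replicate 2 (adjusted p = 0.0770). The difference of 2.27 ± 0.53 between iLC and MEF was not called (adjusted p = 0.130).

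Gstm5, a mu-class gene known for expression in testis and brain, read 28765 in MEF, 30805 and 35747 in the iLC pair, and 81382 and 185374 in the Leydig pair. MEF and iLC were close, and Leydig replicate 2 was well above Leydig replicate 1. The difference between iLC and Leydig cells was -1.89 ± 0.45 (adjusted p = 0.0491), and -1.29, not called, without Leydig replicate 2 (adjusted p = 0.165). That call was also lost without either iLC array, with an added constant of 4 and with aligned low ends. Gstm3 was dim: it read 224 in MEF, 169 and 222 in the iLC pair, and 519 and 786 in the Leydig pair, under the 20th percentile of 3 arrays. Its difference of -1.64 ± 0.36 between iLC and Leydig cells (adjusted p = 0.0354) was -1.35 without Leydig replicate 2 (adjusted p = 0.168), was lost when any 1 of the 4 arrays was left out, and was not called with aligned low ends.

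In the other 11 glutathione transferases nothing was called in the main fit. The largest difference between iLC and MEF among them was that of Gstk1, a mitochondrial and peroxisomal transferase named after its values were seen. It read 5023 in MEF, 20847 and 32110 in the iLC pair, and 13878 and 19400 in the Leydig pair (difference 2.36 ± 0.46, adjusted p = 0.0908), and was called when each array was centred on its median. Gstm7 was 2.06 ± 0.50 higher in Leydig cells than in MEF, not called (adjusted p = 0.0658). That difference passed with an added constant of 64, median centring, quantile normalization or an intensity trend. Gstt4 was also singled out after its values were seen, because it read 763 on Leydig replicate 1 and 6662 on Leydig replicate 2, and 119 to 205 elsewhere. Its difference of -3.81 ± 0.94 between iLC and Leydig cells was not called (adjusted p = 0.0532), passed in 7 alternatives, among them that without Leydig replicate 1, and did not pass without Leydig replicate 2.

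The 3 microsomal transferases are membrane enzymes that conjugate glutathione and reduce lipid hydroperoxides. Mgst1 read 9940 in MEF, 82200 and 36717 in the iLC pair, and 133828 and 101341 in the Leydig pair. The groups did not overlap, and the iLC arrays differed from each other by more than 1 log2 unit. It rose by 3.55 ± 0.56 from MEF to Leydig cells (adjusted p = 0.0179), a call lost without either Leydig array (3.35 to 3.75, adjusted p up to 0.101), and differed by 2.46 ± 0.56 between iLC and MEF, not called (adjusted p = 0.124). Mgst2, which can make leukotriene C4, read 1057 in MEF, 4762 and 5855 in the iLC pair, and 1138 and 1788 in the Leydig pair. The iLC pair was the highest, with MEF and the Leydig pair close together. The difference from Leydig cells was 1.88 ± 0.36 (adjusted p = 0.0237), 2.20 without Leydig replicate 2 (adjusted p = 0.0697), and was lost when any 1 of the 4 arrays was left out (1.55 to 2.20, adjusted p up to 0.112). The difference of 2.30 ± 0.44 from MEF was not called (adjusted p = 0.0901), and was called after median centring and after quantile normalization. Mgst3 was not called, and its 5 values lay between 10965 and 19009.

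**Figure D2:**
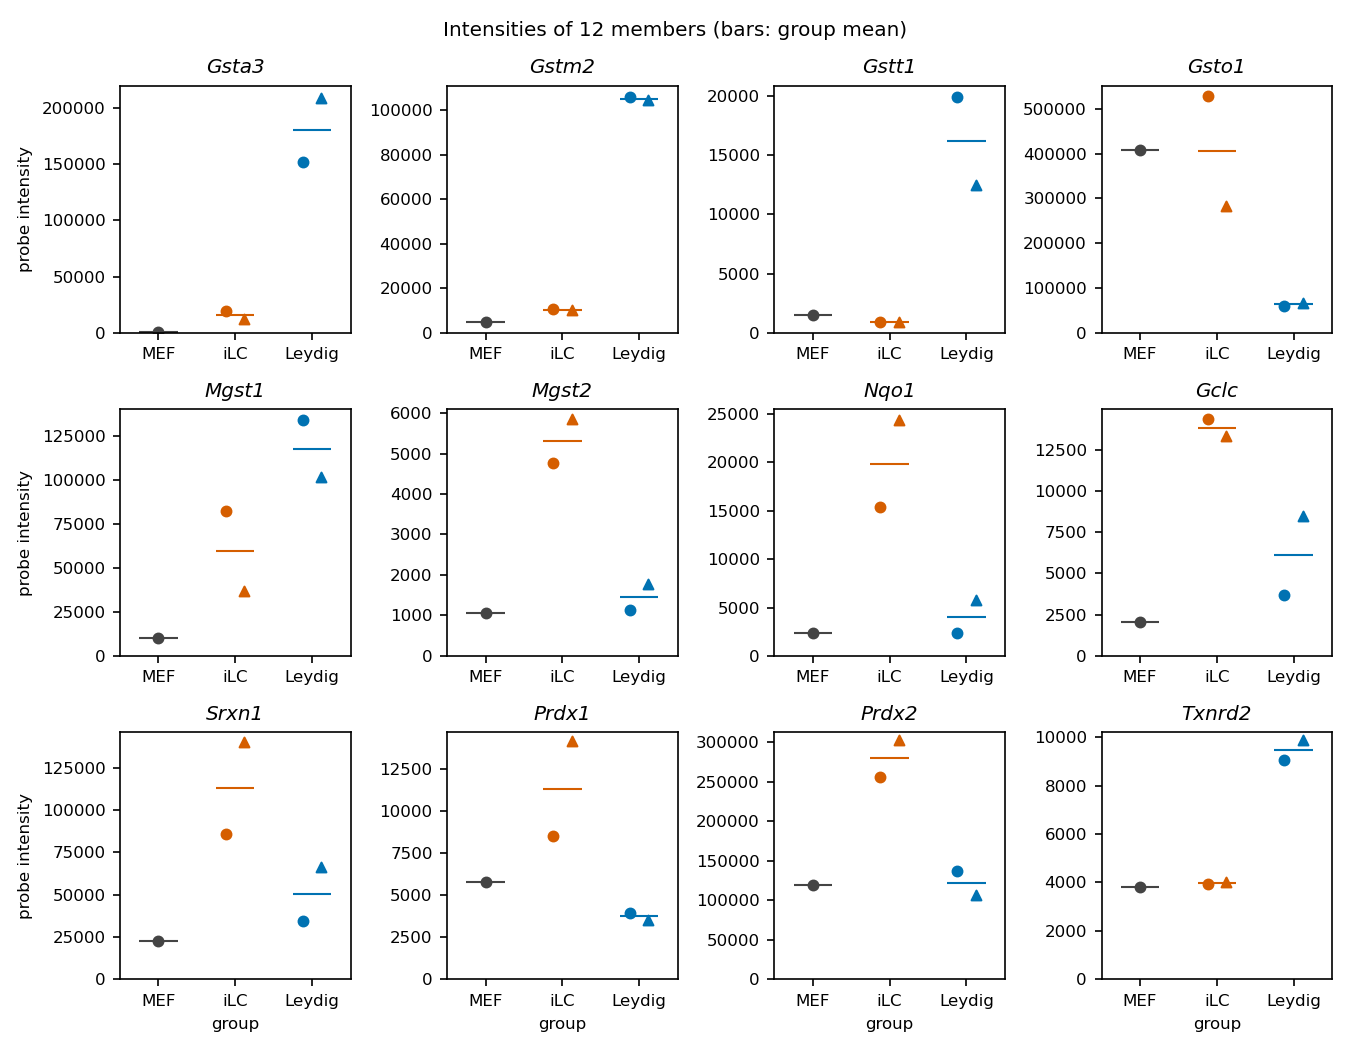
Probe intensity of 12 genes on a linear axis starting at 0, by group (grey, MEF, 1 array; orange, iLC; blue, Leydig; circles, replicate 1; triangles, replicate 2). Horizontal bars are group means, and each panel has its own scale. Gsta3, Gstm2 and Gstt1 are highest on the Leydig arrays, Gsto1 is lowest there, and Mgst2, Nqo1, Gclc, Srxn1, Prdx1 and Prdx2 are highest on the iLC arrays.

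No gene of glutathione synthesis and reduction was called at an adjusted p under 0.05, while 3, 1 and 1 of the 4 passed at an unadjusted p under 0.05 between iLC and MEF, iLC and Leydig cells, and Leydig cells and MEF, where 15.8%, 26.8% and 19.9% of all genes passed. Gclc, the catalytic subunit of glutamate-cysteine ligase and the rate-limiting step, read 2032 in MEF, 14337 and 13336 in the iLC pair, and 3695 and 8501 in the Leydig pair. The iLC arrays were close together and above all others. The difference between iLC and MEF was 2.76 ± 0.56 (adjusted p = 0.0948), which passed after median centring, and that between iLC and Leydig cells was 1.30 ± 0.45 (adjusted p = 0.130), which passed with the replicate number as a block. Gss, glutathione synthetase, read 23018 in MEF, 41501 and 82365 in the iLC pair, and 23661 and 37617 in the Leydig pair, a difference of 1.34 ± 0.55 between iLC and MEF (adjusted p = 0.317). Gclm, the modifier subunit, had the same order of groups as Gclc, with 4425 in MEF, 12859 and 16510 in the iLC pair, and 5705 and 11499 in the Leydig pair. Gsr, glutathione reductase, had overlapping groups, between 13144 and 41649.

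The 8 glutathione peroxidases held no call in any comparison. At an unadjusted p under 0.05, 1 passed between iLC and MEF, 0 between iLC and Leydig cells, and 1 between Leydig cells and MEF, beside the same shares of all genes. Gpx3, the secreted plasma form, read 14813 in MEF, 46580 and 75642 in the iLC pair, and 43508 and 46234 in the Leydig pair. The MEF array was the lowest, with differences of 2.00 ± 0.44 in iLC (adjusted p = 0.114) and 1.60 ± 0.44 in Leydig cells (adjusted p = 0.0940). Gpx4, which reduces lipid hydroperoxides in membranes, read 257915 in MEF, 421754 and 225928 in the iLC pair, and 305447 and 254663 in the Leydig pair, so that the iLC pair spanned all other values. A second, weaker Gpx4 probe gave differences of the same signs. Gpx1 lay between 90004 and 125855 and Gpx8 between 28583 and 57162. Gpx2 read 560 to 657, the narrowest range of the 8. Gpx5, Gpx6 and Gpx7 were under the 20th percentile of at least 1 array.

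Among the 4 peroxiredoxins measured, Prdx1 and Prdx2, the main cytosolic forms, were highest in iLC. Prdx1 read 5786 in MEF, 8525 and 14160 in the iLC pair, and 3950 and 3524 in the Leydig pair. The Leydig arrays were the lowest and the iLC arrays the highest. The difference between iLC and Leydig cells was 1.55 ± 0.37 (adjusted p = 0.0459) and 1.47 without Leydig replicate 2 (adjusted p = 0.208). This call was lost when any 1 of the 4 arrays was left out (1.19 to 1.92), with an added constant of 4 and with aligned low ends. Prdx2 read 118828 in MEF, 256273 and 302474 in the iLC pair, and 137202 and 106809 in the Leydig pair. MEF lay between the Leydig arrays, and the iLC differences of 1.23 ± 0.39 from MEF and 1.20 ± 0.32 from Leydig cells were not called (adjusted p = 0.225 and 0.0666), the latter passing with an added constant of 64, quantile normalization or an intensity trend. Prdx3, the mitochondrial form, had another order, with 3278 in MEF, 8931 and 8549 in the iLC pair, and 9977 and 9361 in the Leydig pair (1.41 ± 0.37 in iLC and 1.56 ± 0.37 in Leydig cells against MEF, adjusted p = 0.156 and 0.0600). The second of these differences passed with an added constant of 64, a filter on dim genes, the floor, quantile normalization or an intensity trend. Prdx4, of the endoplasmic reticulum, read 22167 to 47656, highest on the MEF array.

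Of thioredoxin and its 3 reductases, 1 gene was called. Txnrd2, the mitochondrial reductase, read 3823 in MEF, 3923 and 4009 in the iLC pair, and 9037 and 9890 in the Leydig pair. MEF and iLC were nearly level, and both Leydig arrays were above them. The difference between iLC and Leydig cells was -1.25 ± 0.30 (adjusted p = 0.0487), and -1.18 without Leydig replicate 2 (adjusted p = 0.178). The call was lost when any 1 of the 4 arrays was left out (-1.31 to -1.18), with an added constant of 4, with aligned low ends and with the replicate number as a block. Txnrd1, the cytosolic reductase, read 95725 in MEF, 169401 and 148632 in the iLC pair, and 40053 and 109818 in the Leydig pair, which lay on either side of MEF (1.26 ± 0.51 between iLC and Leydig cells, adjusted p = 0.182). Txnrd3, the form known from testis, had its highest values on the Leydig arrays, 16758 and 11936. The Txn1 probe read 115 to 305 and was under the 20th percentile of 4 arrays, so that it says little of thioredoxin.

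The superoxide dismutases measured (Sod2 and Sod3, without Sod1) and catalase had no call at an adjusted p under 0.05. At an unadjusted p under 0.05, 1, 1 and 2 of the 3 passed in the 3 comparisons, beside 15.8%, 26.8% and 19.9% of all genes. Sod3, the extracellular dismutase, read 7240 in MEF, 33489 and 54143 in the iLC pair, and 13435 and 27058 in the Leydig pair. Its groups did not overlap, with iLC on top (2.55 ± 0.56 above MEF, adjusted p = 0.114, and 1.16 ± 0.46 above Leydig cells, adjusted p = 0.171). Sod2, the mitochondrial form, read 39517 in MEF, 109149 and 54676 in the iLC pair, and 114136 and 125068 in the Leydig pair (1.60 ± 0.51 between Leydig cells and MEF, adjusted p = 0.139). Its second probe read only 79.0 to 179 and gave the opposite sign in the 2 comparisons with Leydig cells. Cat, catalase, read 497 to 940.

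Nqo1, a quinone reductase and a classic Nrf2 target, had the largest difference between iLC and MEF after Gsta3. It read 2358 in MEF, 15379 and 24402 in the iLC pair, and 2313 and 5800 in the Leydig pair. Both iLC arrays were well above the other 3, and MEF lay between the Leydig arrays. The difference of 3.03 ± 0.63 from MEF was not called (adjusted p = 0.102), and passed after median centring. That of 2.40 ± 0.51 from Leydig cells was called (adjusted p = 0.0345). Without Leydig replicate 2 it was 3.06 (adjusted p = 0.0548), and the call was lost when any 1 of the 4 arrays was left out (1.74 to 3.06, adjusted p up to 0.147), with an added constant of 4 and with aligned low ends. Nqo2, a related reductase that uses another cofactor, ran opposite, with 225458 in MEF, 157301 and 171854 in the iLC pair, and 428481 and 352928 in the Leydig pair. Its difference of -1.24 ± 0.31 between iLC and Leydig cells was not called (adjusted p = 0.0547) and passed in 4 alternatives, and a second probe differed in the same direction.

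Srxn1, sulfiredoxin, which restores overoxidised peroxiredoxins, read 22731 in MEF, 85678 and 140164 in the iLC pair, and 34207 and 66109 in the Leydig pair. The groups stood apart, with iLC highest, but the differences of 2.27 ± 0.55 from MEF and 1.20 ± 0.45 from Leydig cells were not called (adjusted p = 0.136 and 0.152). Hmox1, which breaks down haem, read 1830 in MEF, 6071 and 3522 in the iLC pair, and 1569 and 2670 in the Leydig pair (1.33 ± 0.53 between iLC and MEF, adjusted p = 0.304). Nfe2l2 itself read 18629 in MEF, 51767 and 32718 in the iLC pair, and 27546 and 24771 in the Leydig pair. It too was highest in iLC, by 1.14 ± 0.43 over MEF, not called (adjusted p = 0.288).

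**Figure D3:**
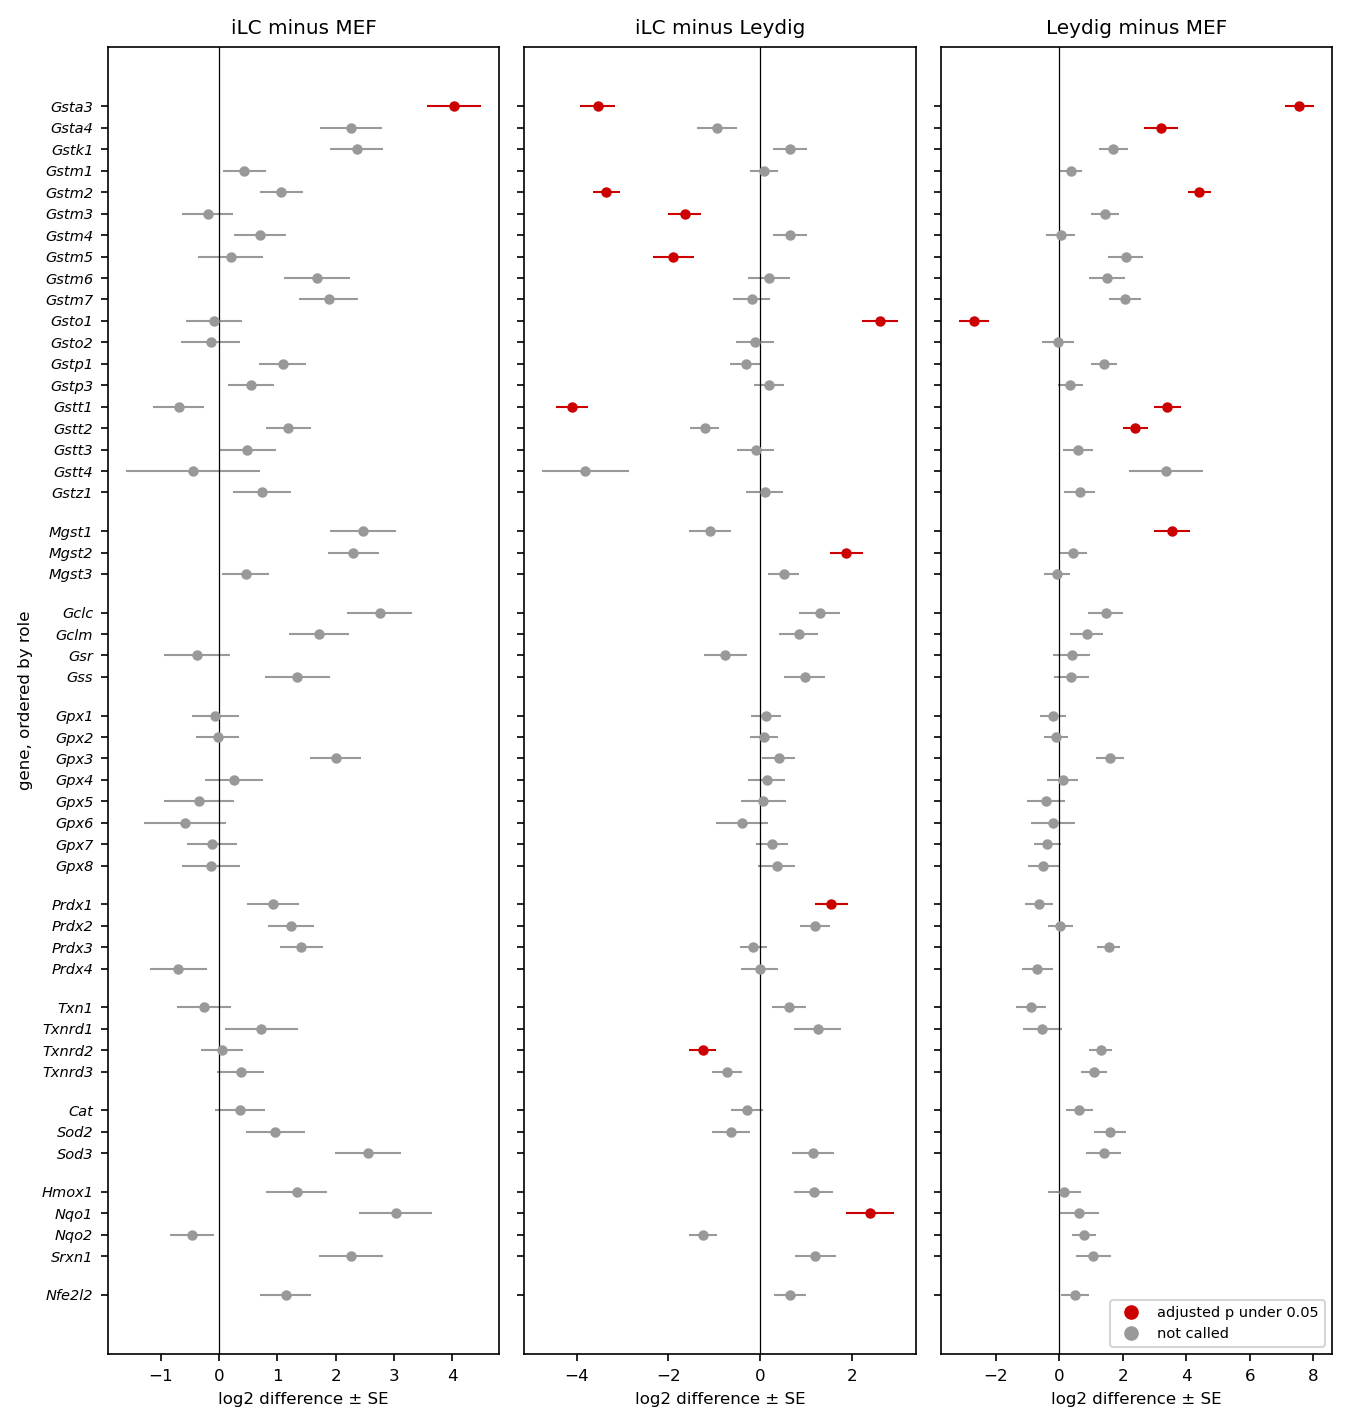
Each row is 1 gene, ordered by role, and each panel 1 comparison. Points are log2 differences from the limma fit with bars of 1 SE, red where the adjusted p was under 0.05 and grey otherwise. Red points number 1 between iLC and MEF, 10 between iLC and Leydig cells, and 7 between Leydig cells and MEF.

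The iLC pair and the Leydig pair differed in how far apart their arrays lay. The median absolute log2 difference of a member was 0.42 within the iLC pair and 0.52 within the Leydig pair, beside 0.37 for all genes in either pair. Leydig replicate 2 was higher than Leydig replicate 1 by more than 1 log2 unit for 10 members (8.54% of all genes) and lower for 0 (3.89%). The 10 were Gclc, Gclm, Gpx6, Gsta4, Gstm5, Gstm6, Gstt4, Nqo1, Sod3 and Txnrd1. Leydig replicate 2 was also the array with the high germ cell sum, and the part of germ cell RNA in these differences was not tested. Between the iLC arrays, replicate 2 was higher by that margin for 1 member, Gpx5 (6.86% of all genes), and lower for 1, Mgst1 (2.9%).

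**Figure D4:**
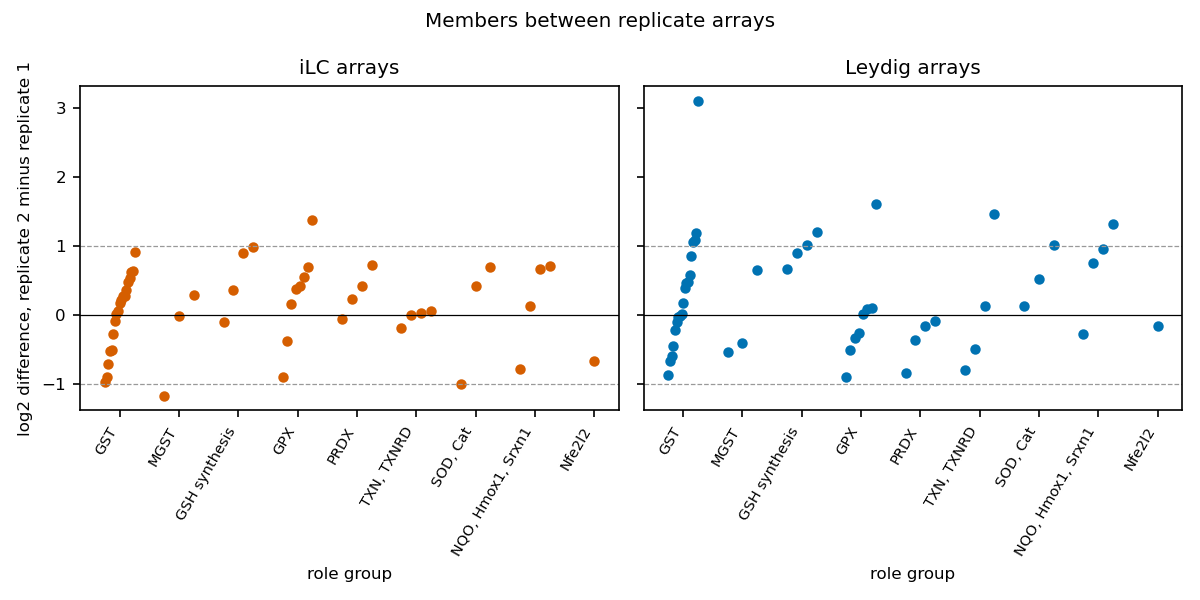
Each point is 1 member, placed by role group along the horizontal axis, and the vertical axis is its log2 value on replicate 2 minus that on replicate 1, for the iLC pair (left) and the Leydig pair (right). Dashed lines mark 1 log2 unit either way. In the Leydig panel 10 points lie above the upper line and 0 below the lower one, and the highest is Gstt4.

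Other genes of these pathways were read from 6 lists, whose medians can be set beside those of all genes (-0.11 between iLC and MEF, -0.03 between iLC and Leydig cells and -0.10 between Leydig cells and MEF, the order in which list medians are given). In that order, the shares of all genes called higher and lower were 0.283% and 0.288%, 5.74% and 5.69%, and 3.39% and 3.99%. Between iLC and MEF 15.8% of all genes had an unadjusted p under 0.05. List counts are to be read beside these shares. Of 37 calls in these lists, 28 were lost when at least 1 iLC or Leydig array was left out and 31 with the floor. The 9 kept whichever array was left out were those of Aox1 and Mt3 (both comparisons with Leydig cells), Osgin1 against MEF, and Ggt5, Cth, Chac1 and Selenop between iLC and Leydig cells. Of the regulators that act with or against Nrf2, 10 of 11 were measured, and 3 were called higher in iLC than in Leydig cells, with 0 lower. They were the small Maf proteins Maff (2.70 ± 0.37, adjusted p = 0.00738) and Mafk (2.32 ± 0.50, adjusted p = 0.0343), which pair with Nrf2 on DNA, and the related factor Nfe2l3 (2.58 ± 0.36, adjusted p = 0.00849). Maff read 9084 in MEF, 19327 and 16231 in the iLC pair, and 2119 and 3461 in the Leydig pair. With Leydig replicate 2 left out the differences were 3.05, 2.74 and 2.92 for Maff, Mafk and Nfe2l3, that of Mafk no longer called (adjusted p = 0.110). The call of Maff was lost without iLC replicate 1 (adjusted p = 0.0523) and that of Nfe2l3 without iLC replicate 2 (adjusted p = 0.0559). Nfe2l3 read 87.2 and 150 in the Leydig pair, under the 20th percentile of both arrays, so the size of its differences depends on the low end of the arrays. Nfe2l3 was also called lower in Leydig cells than in MEF (-2.04 ± 0.44, adjusted p = 0.0474), which was lost without Leydig replicate 2 (-2.38, adjusted p = 0.0911). Between iLC and MEF none of the 10 was called, with 1 at an unadjusted p under 0.05, and the largest difference was that of Sqstm1 (1.83), a protein that draws Keap1 away from Nrf2. The medians of the 10 were 0.32, 0.12 and -0.17.

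Among 19 measured Nrf2 target genes outside the member list, of 20 listed, 6 were called higher in Leydig cells than in MEF and 0 lower. The 4 with the largest differences were Osgin1, an oxidative stress-induced growth inhibitor (6.78 ± 0.81, adjusted p = 0.00787), Aox1, an aldehyde oxidase (4.26 ± 0.37, adjusted p = 0.00384), Ephx1, the microsomal epoxide hydrolase (2.72 ± 0.54, adjusted p = 0.0346), and Me1, the malic enzyme that makes NADPH (2.59 ± 0.48, adjusted p = 0.0287). Osgin1 read 1216 in MEF, 15514 and 13810 in the iLC pair, and 66518 and 276635 in the Leydig pair, an order like that of Gsta3. Without Leydig replicate 2, Osgin1 (5.75) and Aox1 (4.33) were still called, and Ephx1 (2.85) and Me1 (2.29) were not (adjusted p = 0.148 and 0.137). Against Leydig cells, iLC had 1 of the 19 higher, Ftl1, the ferritin light chain (1.92 ± 0.34, adjusted p = 0.0185), and 4 lower, led by Aox1 (-3.34 ± 0.30, adjusted p = 0.00205), Osgin1 (-3.21 ± 0.66, adjusted p = 0.0299) and Ephx1 (-1.88 ± 0.44, adjusted p = 0.0447). When Leydig replicate 2 was omitted only Aox1 of these was called (-3.40, adjusted p = 0.0349), and Osgin1 was at -2.18 (adjusted p = 0.0655), Ftl1 at 2.19 (adjusted p = 0.0656) and Ephx1 at -2.01 (adjusted p = 0.181). None of the 19 was called between iLC and MEF, 11 having an unadjusted p under 0.05 in either direction, and Osgin1 differed most (3.57 ± 0.81, adjusted p = 0.121). The medians of the 19 were 0.92, -0.08 and 0.87.

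In glutathione turnover, with 21 of 22 genes measured, iLC had 2 genes called higher than Leydig cells and 3 lower. Cth, cystathionine gamma-lyase, which makes cysteine for glutathione, read 3415 in MEF, 25907 and 42834 in the iLC pair, and 1314 and 1677 in the Leydig pair. It was 4.47 ± 0.38 higher in iLC than in Leydig cells (adjusted p = 0.00187, and 4.65 with adjusted p = 0.0346 without Leydig replicate 2), and its difference of 3.28 ± 0.46 from MEF had an adjusted p of 0.0521. Chac1, which degrades glutathione in the cytosol and is known as a stress-response gene, was higher in iLC by 3.08 ± 0.32 (adjusted p = 0.00323, and 3.19 with adjusted p = 0.0405 without Leydig replicate 2). Ggt5 and Dpep1, which break down glutathione and its conjugates outside the cell, were on the Leydig side. Ggt5 read 93.0 in MEF, 5.63 and 24.8 in the iLC pair, and 3180 and 1339 in the Leydig pair (-6.13 ± 0.53 between iLC and Leydig cells, adjusted p = 0.00194, and -6.75 with adjusted p = 0.0306 without Leydig replicate 2). The size of that difference depends on the added constant and on the low end of each array, since the MEF and iLC values are among the dimmest. Dpep1 differed by -2.56 ± 0.49 (adjusted p = 0.0237), and by -3.18 without Leydig replicate 2 (adjusted p = 0.0476), and was not called without either iLC array, without Leydig replicate 1 (-1.94 at its smallest, adjusted p up to 0.113) or with aligned low ends. Against MEF, Leydig cells had 3 genes called higher, Ggt5 (4.25), Dpep1 (3.46) and Oplah (2.24), and 1 lower, Hpgds (-1.93), with adjusted p of 0.0161, 0.0234, 0.0323 and 0.0407. None of these 4 passed without Leydig replicate 2 (4.87, 4.08, 2.58 and -2.00, adjusted p = 0.0611, 0.0585, 0.0766 and 0.139). Between iLC and MEF none of the 21 was called, with 5 at an unadjusted p under 0.05, and the list medians were 0.46, 0.26 and 0.27.

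Of 13 measured thioredoxin partners, 14 listed, iLC had 1 called higher than Leydig cells, Sesn2, a stress-induced sestrin (2.01 ± 0.33, adjusted p = 0.0139), and 2 lower, the thioredoxin inhibitor Txnip (-2.28 ± 0.37, adjusted p = 0.0138) and the methionine sulfoxide reductase Msra (-2.07 ± 0.37, adjusted p = 0.0190). Without Leydig replicate 2 they differed by 2.22, -2.47 and -1.69 and were not called (adjusted p = 0.0668, 0.0802 and 0.0994). Leydig cells had 2 called lower than MEF, the ribonucleotide reductase subunits Rrm2 (-3.89 ± 0.48, adjusted p = 0.00860) and Rrm1 (-2.64 ± 0.48, adjusted p = 0.0268), which supply DNA synthesis, and neither was called without Leydig replicate 2 (-4.29 and -2.44, adjusted p = 0.0524 and 0.142). None was called between iLC and MEF, with 5 at an unadjusted p under 0.05, and Rrm2 had the largest difference (-2.39 ± 0.48, adjusted p = 0.0921). Medians of the 13 were -0.20, 0.16 and -0.22.

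All 17 listed genes of the selenoproteins and their synthesis were measured, and 1 was called. Selenop, the secreted selenium carrier, read 16610 in MEF, 16673 and 17383 in the iLC pair, and 172209 and 175652 in the Leydig pair. MEF and iLC were level, and the Leydig arrays were far above both. Selenop differed by -3.35 ± 0.30 between iLC and Leydig cells (adjusted p = 0.00202), and by -3.34 without Leydig replicate 2 (adjusted p = 0.0350). It was 3.39 ± 0.36 higher in Leydig cells than in MEF (adjusted p = 0.00623), and 3.37, not called, without Leydig replicate 2 (adjusted p = 0.0581). None was called between iLC and MEF, with 1 at an unadjusted p under 0.05, and the largest difference was that of Scly (-1.11), which recycles selenium from selenocysteine. The medians of the 17 were -0.10, 0.04 and -0.09.

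The last list holds oxidant sources and metal-binding proteins, 23 of 25 measured. Between iLC and Leydig cells 3 were called lower in iLC and 0 higher: the metallothionein Mt3 (-5.80 ± 0.41, adjusted p = 0.00137), the paraoxonase Pon3 (-2.64 ± 0.42, adjusted p = 0.0128) and xanthine dehydrogenase, Xdh (-1.55 ± 0.31, adjusted p = 0.0271). Xdh read 3402 in MEF, 24752 and 20311 in the iLC pair, and 68362 and 63443 in the Leydig pair. The 3 groups were in the order of Gsta3, with a difference of 2.71 ± 0.38 between iLC and MEF that was not called (adjusted p = 0.0521). Mt3 did not share that order, and read 512 in MEF, 233 and 186 in the iLC pair, and 17508 and 8919 in the Leydig pair. Its iLC values were under the 20th percentile of their arrays (249 and 290), so that the size of its difference depends on their low end, and neither Mt3 call was made with the floor. Leydig cells had Mt3 (4.57 ± 0.51, adjusted p = 0.00698) and Xdh (4.27 ± 0.38, adjusted p = 0.00402) called higher than MEF, and Ncf1, a subunit of the phagocyte oxidase, called lower (-2.48 ± 0.38, adjusted p = 0.0159). Ncf1 read 5091 on the MEF array and 818 to 1151 elsewhere, and the macrophage marker sum was also highest on the MEF array. With Leydig replicate 2 left out, Mt3 was called in both comparisons (-6.29 and 5.05, adjusted p = 0.0306 and 0.0496), while Pon3 (-2.50), Xdh (-1.61 and 4.32) and Ncf1 (-2.62) were not (adjusted p = 0.113, 0.118, 0.0524 and 0.0747). Between iLC and MEF none of the 23 was called, with 8 at an unadjusted p under 0.05, and medians were 0.11, -0.23 and 0.22.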

How the data were processed

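RNA of 5 samples was hybridised to 1 single-colour array each, and samples were grouped by title. The deposited values are intensities as the authors processed them, on a linear scale. The sources used here give neither background correction nor normalization nor software. No detection calls were used. Of 26423 probes, 4547 had no gene symbol in the platform annotation. All 50 members had an Entrez identifier in RefSeq's gene table, with 0 differing symbols. 0 columns belonged to no sample.

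Negative values were set to 0, 16 was added and log2 taken. limma 3.58.1 (R 4.3.3; lmFit, eBayes) estimated a mean for each group from the 5 arrays together, on all 19084 genes, two-sided, with Benjamini-Hochberg adjustment and a threshold of 0.05. It had 2 residual and 4.19 prior degrees of freedom; MEF, with 1 array, was given the spread of the pairs, whose standard deviations were 0.459 (iLC) and 0.549 (Leydig). The number of arrays limits the precision.

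Per-array values were given for members called in a comparison and, within each role group, for the brightest member and that with the largest difference in each comparison; of each pathway list, up to 4 called genes with the largest differences, or the largest where none was called. Members and lists were chosen with earlier results of these data known. Alternatives were other added constants, centring, quantile normalization, a filter and a floor on dim genes, aligned low ends, other probe rules, an intensity trend, arrays left out, the iLC and Leydig arrays alone, and the replicate number as a block. Promoters came from RefSeq (GRCm38.p6).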

Additional observations from a re-analysis of the deposited data

How the results depend on the processing

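Member differences were recomputed where they were called or at least 1 log2 unit in size, 63 in number. Over all alternatives these differences kept their sign, and 67 recomputed values lost a call while 35 gained one. Several settings, such as the intensity trend, cannot alter a difference, so the kept signs are a weak check. The count of members called between iLC and MEF was 1, and became 5 with median centring (Gclc, Gsta3, Gstk1, Mgst2 and Nqo1), 2 with quantile normalization, and 0 with an added constant of 4, with the floor at the 20th percentile, with aligned low ends and when any 1 iLC or Leydig array was left out. Over all genes, calls higher and lower were 54 and 55, against 144 and 240 with median centring, 163 and 200 with quantile normalization, 125 and 162 with an added constant of 64, 7 and 0 with a constant of 4, 6 and 0 with aligned low ends, 19 and 34 with the floor, and 0 and 0 when any 1 of those arrays was left out. Between iLC and Leydig cells 10 members were called, against 6 with a constant of 4, 5 with aligned low ends, 2 with the floor, 2 to 5 without 1 array, 11 with median centring, 13 with quantile normalization, 13 with the filter on dim genes, 14 with a constant of 64 and 14 with the intensity trend, the additions being among Gstt2, Gstt4, Nqo2 and Prdx2; over all genes 1095 and 1086 became 189 and 155 with the floor and 336 and 368 without Leydig replicate 2. Between Leydig cells and MEF 7 were called, against 2 with the floor, 9 with a constant of 64 and 2 to 7 without 1 array (5 without Leydig replicate 1, 2 without Leydig replicate 2); over all genes 646 and 762 became 95 and 177 with the floor and 77 and 72 without Leydig replicate 2. The Leydig to MEF calls with the floor were those of Gstm2 and Prdx3, the latter not among the 7. Over all genes, calls between iLC and Leydig cells were 964 and 914 with a constant of 4 and 889 and 782 with aligned low ends. They were 1236 and 1424 with median centring, 1324 and 1314 with quantile normalization, and 1269 and 1265 with a constant of 64. With the intensity trend they were 1264 and 1263, and with the filter 1194 and 1129 of 15267 genes. Between Leydig cells and MEF they were 803 and 931 with a constant of 64. Leaving out an array also takes 1 of the 2 residual degrees of freedom. Of 18 member calls, 14 were lost without at least 1 array, and the 2 of Gstm2 were kept in every alternative. Of 37 calls in the pathway lists, 28 were lost without at least 1 array. Apart from the construction of these settings, the cause was not tested. With the replicate block, possible for iLC against Leydig cells only, 11 members were called, 9 of them shared with the 10, Txnrd2 being lost and Gclc and Gstt4 gained, and 1485 and 1958 of all genes. Same-numbered arrays deviated together with a correlation of only 0.0552 over 2 pairs, so the numbers were not taken as pairing. Detection calls were not used, so for the 6 members under the 20th percentile of at least 1 array no signal over background can be given.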
